A study of Mus musculus with 8 samples.

Results

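The interferon response genes are those that cells switch on after interferon signalling, and 38 mouse genes of this kind were chosen by symbol. Of the 38, 35 were measured by a probe set annotated with a single gene symbol, out of 19938 genes measured in this way. For a gene with several such probe sets, the one with the highest mean over all 8 arrays was used; among the members this concerned Irf1. Gbp2 and Isg15 were annotated only on probe sets shared with other genes, and no value is given for them or for Ifi44.

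Type I interferons bind a receptor on the cell surface and activate JAK kinases. STAT2 and IRF9 are parts of the complex ISGF3, which then binds interferon-stimulated response elements in promoters. Interferon gamma acts through gamma-activated sites. The induced genes encode sensors of viral RNA, proteins that block translation or degrade RNA, ubiquitin-like modifiers and the machinery of class I antigen presentation. In heart, cardiomyocytes, fibroblasts, endothelial cells and resident macrophages can all respond to interferon.

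Heart RNA of mice aged 9 weeks, of background strain C57Bl6, was hybridized to arrays, 1 animal per array and 2 animals per group. The 4 groups were S105A hearts with PE (arrays 7 and 8), WT hearts with PE (arrays 3 and 4), S105A hearts without PE (arrays 5 and 6) and WT hearts without PE (arrays 1 and 2). S105A mice were homozygous for a serine-to-alanine change in GATA4, a cardiac transcription factor, and the labels do not limit the mutation to a cell type. PE, spelled "pseudophedrine" in the labels, was given by subcutaneous osmotic pump at 100 mg/kg/day for 5 days. The groups without PE are titled untreated, while the protocol names saline. The titles say whole heart and the tissue field says whole heart ventricle. Values are log2 RMA expression levels, and all differences below are on the log2 scale.

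The arrays had medians of 6.18 to 6.23, and no pair of arrays held identical values. All 11 cardiomyocyte markers, such as Actc1 and Tnnt2, stood at or above the 99.4th percentile of genes on every array. PE arrays 3 and 7 stood apart from the other 6. Their 9 fibroblast markers averaged 11.00 on array 7 and 11.30 on array 3, against 10.25 and 10.24 on the other PE arrays, 8 and 4, and 9.32 to 9.47 on the untreated arrays. In these bulk samples, fewer cells of a type and less RNA per cell cannot be told apart.

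Promoter sequence shows which members carry the letters of the response elements. RefSeq windows of 300 bases, from 250 bases before to 50 after the gene start (GRCm38.p6), were found for 29 of the 38 members. Dhx58, Mx1, Mx2, Oas2, Parp14, Parp9, Rtp4, Usp18 and Zbp1 were not matched. The response element letters, GAAA followed by any 2 bases and GAAA again, were searched on both strands. They were present in 14 of the 29 members (48.3%), against 3.99% of 27025 genes and 3.44% of all 32851 windows of this length. The gamma-activated site letters TTCNNNGAA, which read the same on both strands, were present in 6 of the 29 (20.7%), against 9.55% of genes and 8.3% of windows. Of the 9 measured members with a match before the start, the 6 with the smallest p-value of the averaged PE difference are shown, in that order; Gbp3, Oas3 and Stat2 are not. Each is given 5′ to 3′ on the strand of the gene and ends at the base before the start, with the response element letters or their reverse complement in capitals.
Ifit3 (chr19:34583279-34583528, plus strand): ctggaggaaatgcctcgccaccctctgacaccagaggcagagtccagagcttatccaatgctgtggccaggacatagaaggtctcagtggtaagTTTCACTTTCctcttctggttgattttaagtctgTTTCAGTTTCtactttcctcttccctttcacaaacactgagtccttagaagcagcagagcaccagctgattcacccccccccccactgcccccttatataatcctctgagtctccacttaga
Bst2 (chr8:71537473-71537722, minus strand): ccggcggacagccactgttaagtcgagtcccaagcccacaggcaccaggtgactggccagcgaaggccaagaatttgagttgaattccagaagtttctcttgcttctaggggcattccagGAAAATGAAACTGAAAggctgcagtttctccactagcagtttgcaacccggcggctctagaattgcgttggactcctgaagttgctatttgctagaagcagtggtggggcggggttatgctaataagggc
Ifit1 (chr19:34640639-34640888, plus strand): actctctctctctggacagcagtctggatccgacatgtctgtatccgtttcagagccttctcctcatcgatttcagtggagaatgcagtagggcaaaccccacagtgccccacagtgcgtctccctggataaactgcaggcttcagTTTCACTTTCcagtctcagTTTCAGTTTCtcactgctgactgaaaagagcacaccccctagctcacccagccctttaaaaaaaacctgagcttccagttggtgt
Ddx60 (chr8:61927837-61928086, plus strand): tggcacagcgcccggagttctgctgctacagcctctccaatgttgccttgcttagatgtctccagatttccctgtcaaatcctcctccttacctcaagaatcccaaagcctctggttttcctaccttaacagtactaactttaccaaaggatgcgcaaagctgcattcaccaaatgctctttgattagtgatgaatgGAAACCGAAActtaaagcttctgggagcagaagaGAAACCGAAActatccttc
B2m (chr2:122147437-122147686, plus strand): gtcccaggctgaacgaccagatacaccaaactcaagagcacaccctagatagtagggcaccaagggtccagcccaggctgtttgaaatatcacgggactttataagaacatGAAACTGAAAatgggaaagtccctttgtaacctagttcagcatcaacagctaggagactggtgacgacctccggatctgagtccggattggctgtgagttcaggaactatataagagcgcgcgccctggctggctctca
Rsad2 (chr12:26456453-26456702, minus strand): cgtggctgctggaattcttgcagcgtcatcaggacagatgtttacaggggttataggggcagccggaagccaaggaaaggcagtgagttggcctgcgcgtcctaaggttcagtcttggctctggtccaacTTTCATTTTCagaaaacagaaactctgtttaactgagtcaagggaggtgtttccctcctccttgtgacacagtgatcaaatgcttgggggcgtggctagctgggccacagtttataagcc
Ifit3 and Ifit1 each held a pair of matches in reverse orientation, which ended nearest the start at positions -113 and -76 (position -1 is the base before the start). Ddx60 held 2 matches in forward orientation, and in Bst2 2 matches overlapped each other, the one farther from the start also overlapping a match of the gamma-activated site letters. The B2m and Rsad2 windows held 1 match each. A match describes the letters of the window only. Among the members whose windows did not hold the response element letters were Ifit2, Oasl1, Oasl2 and Irf7.

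**Figure D1:**
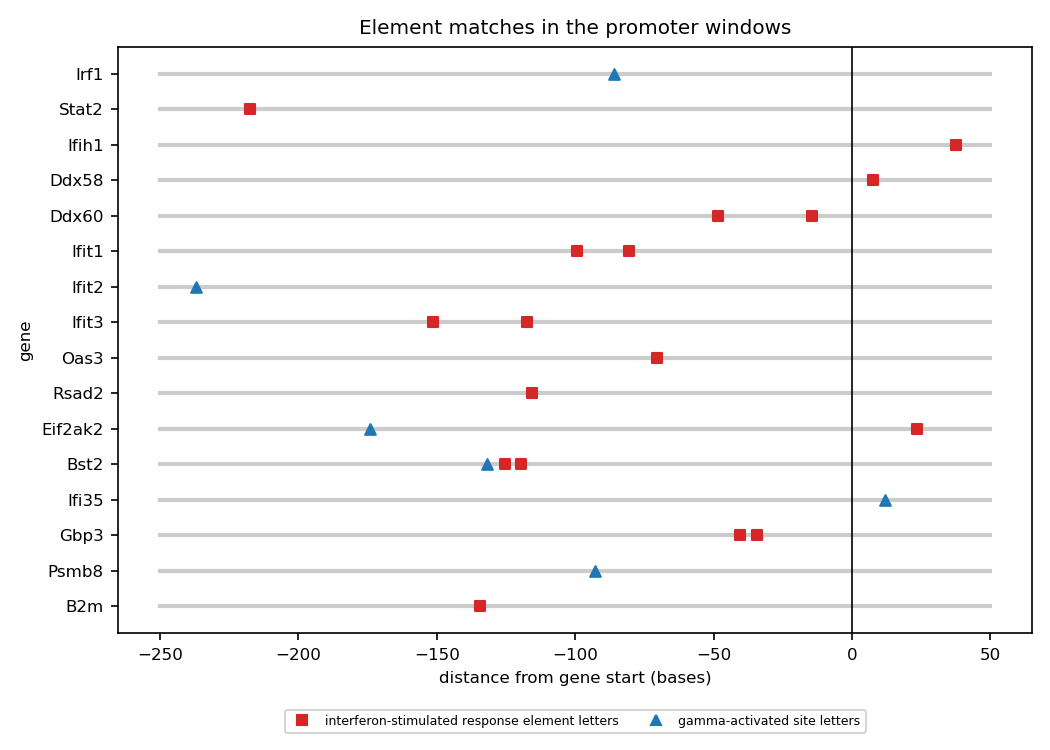
Positions of element matches in the promoter windows of measured members with at least 1 match, as distance in bases from the gene start; squares are response element letters and triangles gamma-activated site letters, and each grey line is the window. Matches of the response element letters lay before the start in 9 of 12 measured members and after it in Ddx58, Eif2ak2 and Ifih1.

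The first question was what PE did to these genes in each genotype. No member passed the adjusted threshold of 0.05 (limma, Benjamini-Hochberg over all genes) with PE in S105A hearts, in WT hearts or averaged over the genotypes. Over all genes, 0.0% passed in S105A hearts, 0.00502% in WT hearts and 0.00502% in the average. The lowest adjusted p among members was 0.765 in S105A hearts, 0.419 in WT hearts and 0.275 in the average.

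In S105A hearts the median member difference with PE was 0.20, against -0.02 for all genes. The difference was above 0 in 29 of the 35, where 43.6% of all genes were above 0. In WT hearts the member median was 0.00, the same as for all genes, and 18 of the 35 were above 0 where 48.9% of genes were. At an unadjusted p under 0.05, 7 members were higher and 0 lower in S105A hearts, with backgrounds of 3.09% and 2.77% of genes. In WT hearts 2 were higher and 0 lower, with backgrounds of 5.99% and 5.76%. The S105A median lay between 0.11 (array 5 left out) and 0.32 (array 8 left out). Counted in either direction, where 5.86% of genes passed in S105A hearts and 11.7% in WT hearts, the S105A count of 7 was 2 if array 7 was dropped (1.9% of genes then passed), 3 if array 5 was (2.79%) and 11 if array 8 was (10%). The WT count of 2 was 6 if array 4 was dropped, when 30.9% of genes passed, which is above the members' share. It was 1 if array 1 was dropped (5.45%) and 4 if either S105A PE array was (11.4%).

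In S105A hearts, the PE arrays did not overlap the untreated arrays and lay above them for 15 members, where 20.2% of genes did so, and below them for 1, Mx2, where 25.2% did. The corresponding WT counts were 9 above (22.7% of genes) and 5 below (23.5%). In 6 members the PE arrays lay above the untreated arrays of their own genotype in both genotypes, namely Dhx58, Zbp1, Ifit2, Oasl2, Bst2 and Usp18, against 9.74% of all genes. In none did they lie below in both, where 9.53% of genes did. Averaged over genotypes, the member median was 0.07, against -0.02 for all genes, and 25 of the 35 were above 0 (44.0% of genes). In this average 9 members were higher and 0 lower at an unadjusted p under 0.05, with backgrounds of 9.31% and 7.44%. In either direction (16.7% of genes) the count of 9 became 3 with array 1 (9.47% of genes) or array 7 (6.95%) left out and 4 with array 2 left out (8.95%). The averaged median was 0.00 with array 5 left out, 0.02 with array 7 left out and 0.14 with array 6 left out.

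**Figure D2:**
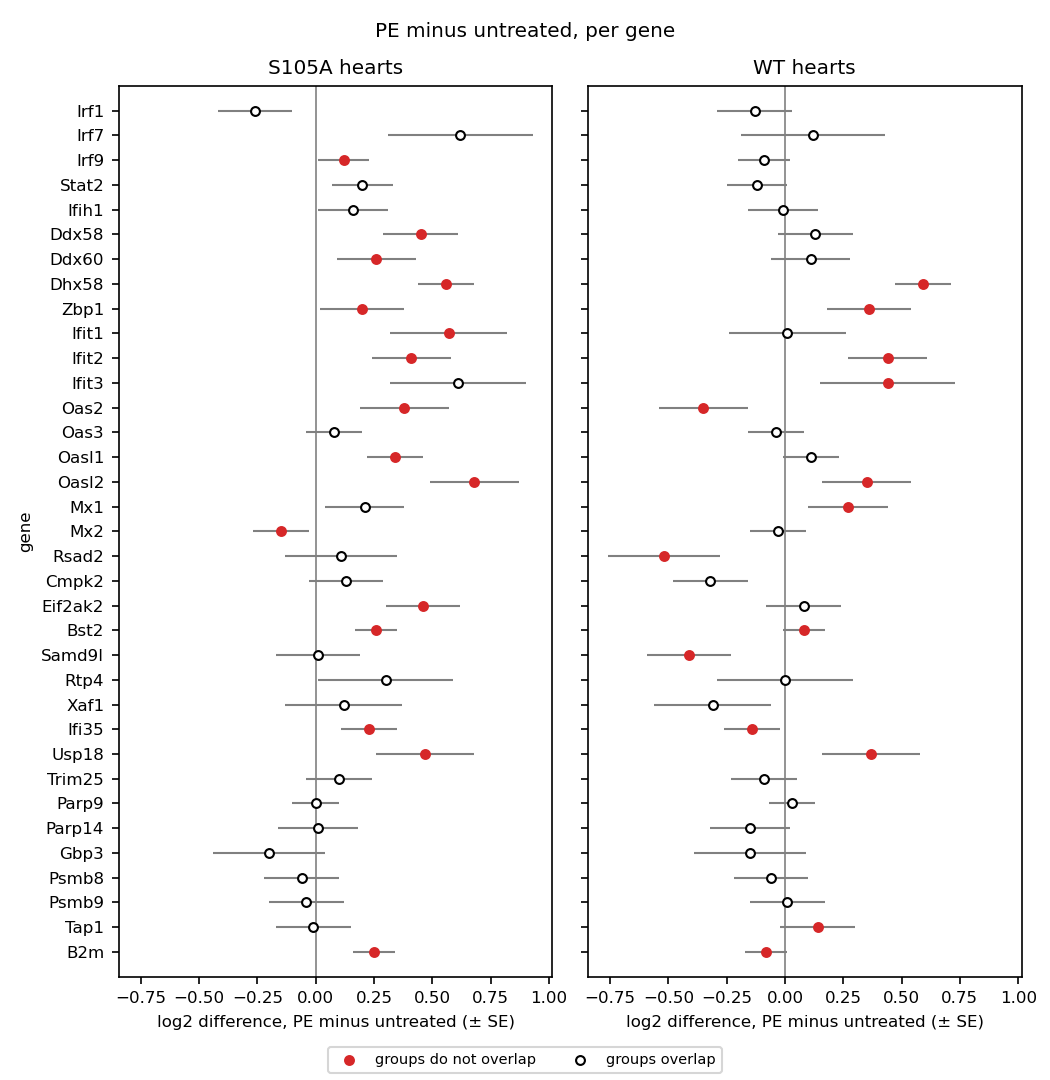
Log2 difference of each member, PE minus untreated, in S105A hearts (left) and WT hearts (right); points are differences of 2 against 2 arrays, bars are standard errors of the linear model, and red points mark groups that do not overlap. In S105A hearts 29 of 35 points lie above 0 and in WT hearts 18 of 35.

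The sensors had the member with the smallest p. Dhx58 encodes LGP2, which modulates RNA sensing by RIG-I and MDA5. It measured 6.31 and 6.11 in S105A PE hearts against 5.66 and 5.63 in S105A untreated hearts, and 6.22 and 6.47 in WT PE hearts against 5.83 and 5.68 in WT untreated hearts. All 4 PE arrays were above all 4 untreated arrays, which was so for 4 members (6.7% of genes), the others being Zbp1, Ifit2 and Bst2; 0 members had all PE arrays below (6.15%). The averaged Dhx58 difference was 0.58 (SE 0.09, 95% interval 0.37 to 0.78, 1.49-fold) with an adjusted p of 0.275. Without array 4 it was 0.51, and without arrays 3 and 7 it was 0.59. Both settings left a single WT PE array.

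Zbp1, a sensor of Z-form nucleic acid that can start necroptosis, measured 6.70 and 6.67 in S105A PE hearts against 6.40 and 6.56 in S105A untreated hearts. It measured 6.67 and 7.25 in WT PE hearts against 6.54 and 6.65 in WT untreated hearts. All PE values were above all untreated values, but array 4 held most of the WT difference, which was 0.36 on all arrays, 0.08 without array 4 and 0.65 without array 3. Ddx58, which encodes RIG-I, measured 8.67 and 8.21 in S105A PE hearts against 7.90 and 8.08 in S105A untreated hearts. That difference was 0.45, and 0.22 without array 7 or 0.68 without array 8. In WT hearts Ddx58 measured 8.64 and 8.42 with PE against 8.36 and 8.43 without, so the groups overlapped there.

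Ddx60, an RNA helicase linked to RIG-I signalling, measured 6.09 and 5.89 in S105A PE hearts against 5.71 and 5.76 in S105A untreated hearts. In WT hearts it measured 5.43 and 5.87 with PE and 5.69 and 5.39 without, with overlap. Ifih1, which encodes MDA5, had PE differences of 0.16 in S105A hearts and -0.01 in WT hearts, and its groups overlapped in both. Ddx60 and Dhx58 were among 5 members, with Oas3, Mx1 and Mx2, in the lowest 40% of genes by mean level.

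The IFIT genes encode tetratricopeptide proteins that bind viral RNA and restrain its translation, and their median PE difference was 0.57 in S105A hearts and 0.44 in WT hearts. Ifit2 measured 8.39 and 7.92 in S105A PE hearts against 7.58 and 7.91 in S105A untreated hearts, and 8.18 and 8.24 in WT PE hearts against 7.82 and 7.74 in WT untreated hearts. The PE arrays were above the untreated arrays in both genotypes, in S105A hearts by as little as 7.92 against 7.91. The averaged difference was 0.42 (SE 0.12, 95% interval 0.13 to 0.72, adjusted p 0.277). Ifit3 measured 9.14 and 8.39 in S105A PE hearts against 7.87 and 8.43 in S105A untreated hearts, which overlapped. Ifit3 in WT hearts was 8.44 and 8.82 with PE against 8.08 and 8.30 without, which did not. Ifit1 measured 8.36 and 7.62 in S105A PE hearts against 7.22 and 7.62 in S105A untreated hearts, and in WT hearts 7.75 and 7.94 with PE against 7.72 and 7.94 without. The S105A groups were apart by less than the rounding shown for arrays 8 and 6, and the WT groups overlapped. Array 7 was the highest and array 5 the lowest of the 8 arrays for each of the 3 IFIT genes.

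The OAS genes encode oligoadenylate synthetases, which activate RNase L, and related OAS-like proteins. Oasl2 measured 8.53 and 7.98 in S105A PE hearts against 7.49 and 7.65 in S105A untreated hearts, a difference of 0.68 (SE 0.19, 95% interval 0.23 to 1.13, 1.61-fold, adjusted p 0.765), which was 0.41 without array 7. In WT hearts it measured 8.23 and 8.45 with PE against 7.89 and 8.08 without, a difference of 0.35 (SE 0.19, adjusted p 0.445). Its PE arrays lay above the untreated arrays of their genotype in both. Oasl1 measured 7.48 and 7.50 in S105A PE hearts against 7.26 and 7.03 in S105A untreated hearts. In WT hearts the Oasl1 values were 7.27 and 7.54 with PE and 7.31 and 7.29 without, so the groups overlapped.

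The PE difference of Oas2 had opposite signs in the genotypes. It measured 7.47 and 7.46 in S105A PE hearts against 6.91 and 7.27 in S105A untreated hearts, and 7.14 and 7.65 in WT PE hearts against 7.78 and 7.71 in WT untreated hearts. The PE arrays were all higher in S105A hearts and all lower in WT hearts, with differences of 0.38 and -0.35 (SE 0.19 each). Oas3 differed by 0.08 in S105A hearts and -0.04 in WT hearts, and its groups overlapped in both.

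Among the antiviral effectors, Bst2, which encodes tetherin, a protein that holds budding virions at the cell surface, had the smallest spread. It measured 8.05 and 7.85 in S105A PE hearts against 7.67 and 7.71 in S105A untreated hearts, and 7.80 and 7.72 in WT PE hearts against 7.66 and 7.70 in WT untreated hearts. All 4 PE arrays were above all 4 untreated arrays, with an averaged difference of 0.17 (SE 0.07, adjusted p 0.288). Eif2ak2, which encodes the translation-blocking kinase PKR, measured 7.37 and 7.13 in S105A PE hearts against 6.63 and 6.97 in S105A untreated hearts, a difference of 0.46, or 0.28 without array 5. In WT hearts Eif2ak2 was 7.39 and 7.12 with PE and 7.22 and 7.15 without, with overlap.

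Of the 10 effectors, 6 had a PE difference below 0 in WT hearts, as did 10179 of all 19938 genes. None of the 6 was lower at an unadjusted p under 0.05 (limma), where 5.76% of all genes were. Rsad2, which encodes viperin, an enzyme that makes a chain-terminating nucleotide, measured 7.42 and 8.12 in WT PE hearts against 8.38 and 8.21 in WT untreated hearts. Its WT difference was -0.52 (SE 0.24, 95% interval -1.10 to 0.05, adjusted p 0.419), -0.17 without array 3 and -0.88 without array 4. In S105A hearts Rsad2 measured 7.92 and 8.27 with PE and 7.85 and 8.13 without, which overlapped. Samd9l, a translation inhibitor, measured 6.86 and 7.25 in WT PE hearts against 7.50 and 7.42 in WT untreated hearts. Its S105A values were 7.15 and 7.06 with PE and 6.86 and 7.33 without. Cmpk2, a mitochondrial nucleotide kinase encoded beside Rsad2, measured 6.75 and 7.08 in WT PE hearts and 7.39 and 7.07 in WT untreated hearts, an overlap of 0.01. The S105A values of Cmpk2 were 7.29 and 7.05 with PE and 7.01 and 7.06 without. For Rsad2, Samd9l and Cmpk2, array 3 was the lower of the WT PE arrays. The WT difference of Samd9l was -0.41, and -0.21 without array 3; that of Cmpk2 was -0.32, -0.15 without array 3 and -0.16 without array 1.

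Ifi35, an interferon-induced leucine zipper protein, followed the pattern of Oas2. It measured 8.12 and 8.02 in S105A PE hearts against 7.71 and 7.96 in S105A untreated hearts, and 7.89 and 8.08 in WT PE hearts against 8.17 and 8.08 in WT untreated hearts. The PE arrays were higher than the untreated arrays in S105A hearts and lower in WT hearts, in WT by less than the rounding shown for arrays 4 and 2. Of the remaining effectors, the GTPase genes Mx1 and Mx2 differed with PE by 0.21 and -0.15 in S105A hearts and by 0.27 and -0.03 in WT hearts. Xaf1, a pro-apoptotic factor, differed by 0.12 in S105A hearts and -0.31 in WT hearts, and Rtp4, a receptor transporter protein that also dampens interferon responses, by 0.30 and 0.00.

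Of the ISG15 and ADP-ribosylation enzymes, Usp18, which removes ISG15 from proteins and damps receptor signalling, measured 8.50 and 7.97 in S105A PE hearts against 7.71 and 7.83 in S105A untreated hearts. In WT hearts Usp18 was 8.11 and 8.43 with PE against 7.73 and 8.07 without. The groups did not overlap in either genotype, and the averaged difference was 0.42 (SE 0.15, adjusted p 0.285). Trim25, a ubiquitin ligase of the RIG-I pathway, and the ADP-ribosyltransferase genes Parp9 and Parp14 had PE differences of 0.00 to 0.10 in S105A hearts and -0.15 to 0.03 in WT hearts, and their groups overlapped in both.

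The transcription factors had no member at an unadjusted p under 0.05 with PE. Irf7, the regulator that amplifies type I interferon production, measured 8.64 and 7.79 in S105A PE hearts and 7.36 and 7.83 in S105A untreated hearts, which overlapped. In WT hearts Irf7 measured 7.84 and 8.40 with PE and 8.03 and 7.96 without. Its S105A difference of 0.62 had an SE of 0.31, the largest SE among the members. Irf1, an early regulator induced by interferon gamma, measured 7.68 and 7.83 in S105A PE hearts and 7.80 and 8.23 in S105A untreated hearts, and in WT hearts 7.60 and 7.77 with PE and 7.72 and 7.90 without. Irf1 overlapped in both genotypes. Irf9, the DNA-binding part of ISGF3, measured 8.07 and 8.08 in S105A PE hearts against 7.87 and 8.03 in S105A untreated hearts, and in WT hearts 7.83 and 8.03 with PE and 7.94 and 8.11 without. Stat2 measured 7.87 and 7.62 in S105A PE hearts and 7.42 and 7.66 in S105A untreated hearts, and in WT hearts 7.86 and 7.75 with PE and 7.85 and 7.99 without.

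The 4 class I presentation genes had a median PE difference of -0.02 in S105A hearts and -0.02 in WT hearts. B2m, the light chain of class I molecules, measured 12.65 and 12.66 in S105A PE hearts against 12.29 and 12.52 in S105A untreated hearts, a difference of 0.25 (SE 0.09, adjusted p 0.765). In WT hearts B2m measured 12.56 and 12.51 with PE against 12.61 and 12.60 without, a difference of -0.08 (SE 0.09, adjusted p 0.744). The immunoproteasome subunit genes Psmb8 and Psmb9 and the peptide transporter gene Tap1 differed by -0.06 to -0.01 in S105A hearts and by -0.06 to 0.14 in WT hearts. Gbp3, a guanylate-binding GTPase induced mainly by interferon gamma, measured 7.59 and 7.26 in S105A PE hearts and 7.28 and 7.96 in S105A untreated hearts, and in WT hearts 6.84 and 7.23 with PE and 7.25 and 7.14 without. Its groups overlapped in both genotypes.

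**Figure D3:**
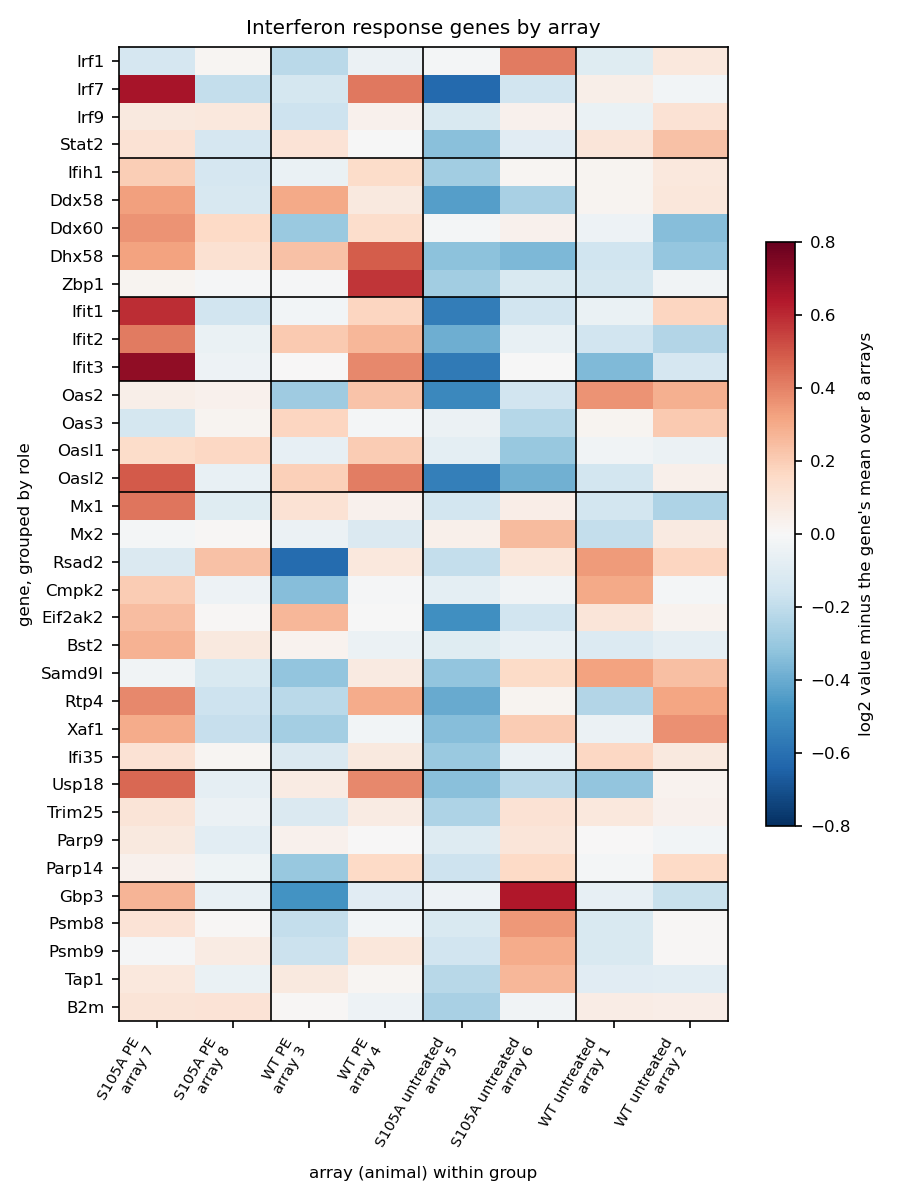
Log2 value of each member on each array minus the gene's mean over the 8 arrays, by group and role; red is above and blue below the mean. Array 5 is blue and array 7 red for most members. By role, the IFIT genes have the widest span of medians between these arrays, -0.55 on array 5 and 0.59 on array 7. Among single members Irf7 has the widest, 7.36 on array 5 and 8.64 on array 7.

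The next question was whether the genotypes differed. Without PE, the median member difference of S105A against WT hearts was -0.13, against 0.00 for all genes, and 25 of the 35 were lower in S105A hearts; 50.9% of all genes were above 0. No member passed the adjusted threshold by limma (0.0% of genes, lowest adjusted p 0.962). At an unadjusted p under 0.05, 5 members were lower, namely Stat2, Ddx58, Oas2, Eif2ak2 and Ifi35, and 0 were higher, with backgrounds of 2.53% and 2.43%. Both S105A arrays lay below both WT arrays in 16 members (22.7% of genes) and above them in 3, Ddx60, Mx1 and Gbp3 (21.8%). The median was -0.04 with array 5 left out, -0.07 with array 2 left out and -0.22 with array 6 left out. In either direction (4.96% of genes) the count of 5 became 1 with array 1 left out (3.93%) and 2 with array 2 left out (2.29%). It became 11 with arrays 3 and 7 left out, when the share of all genes was 12.4%. This comparison shares arrays 5 and 6 with the PE comparison in S105A hearts, so the lower untreated values enter both.

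The untreated Oas2 values of 6.91 and 7.27 in S105A hearts against 7.78 and 7.71 in WT hearts gave a difference of -0.66 (SE 0.19, 95% interval -1.10 to -0.21, adjusted p 0.962). All 4 OAS genes were lower in S105A hearts without PE, and their S105A and WT arrays did not overlap. Stat2, at 7.42 and 7.66 against 7.85 and 7.99, gave -0.38 (SE 0.13). Ddx58 gave -0.41 (SE 0.16), Eif2ak2 -0.38 (SE 0.16) and Ifi35 -0.29 (SE 0.12). Without array 5, Eif2ak2 gave -0.21 and Ifi35 -0.16. Gbp3 stood at the other end with 0.43 (SE 0.24), and Psmb8, Psmb9 and Tap1 lay between 0.11 and 0.17 with overlapping groups.

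With PE, the median difference of S105A against WT hearts was 0.08, against -0.01 for all genes, and 23 of the 35 were above 0 (46.9% of genes). No member passed the adjusted threshold by limma (0.0% of genes, lowest adjusted p 0.989), and 0 passed at an unadjusted p under 0.05, with backgrounds of 1.25% higher, 1.43% lower and 2.68% in either direction. That count became 3 with array 4 left out, when 20.6% of genes passed, 3 with array 8 left out (2.66%) and 5 with arrays 3 and 7 left out (4.8%). Both S105A PE arrays lay above both WT PE arrays for 7 members (10.5% of genes), Irf9, Ddx60, Mx2, Bst2, Gbp3, Psmb8 and B2m, and below them for 0 (13.0%). The lowest p was that of Bst2, which differed by 0.19 (SE 0.09, 95% interval -0.03 to 0.41), and by 0.09 without array 7 or 0.29 without array 8. The median was -0.12 with arrays 3 and 7 left out, -0.02 with array 3 alone left out and -0.03 with array 7 alone left out, while it was 0.15 with array 4 and 0.14 with array 8 left out.

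**Figure D4:**
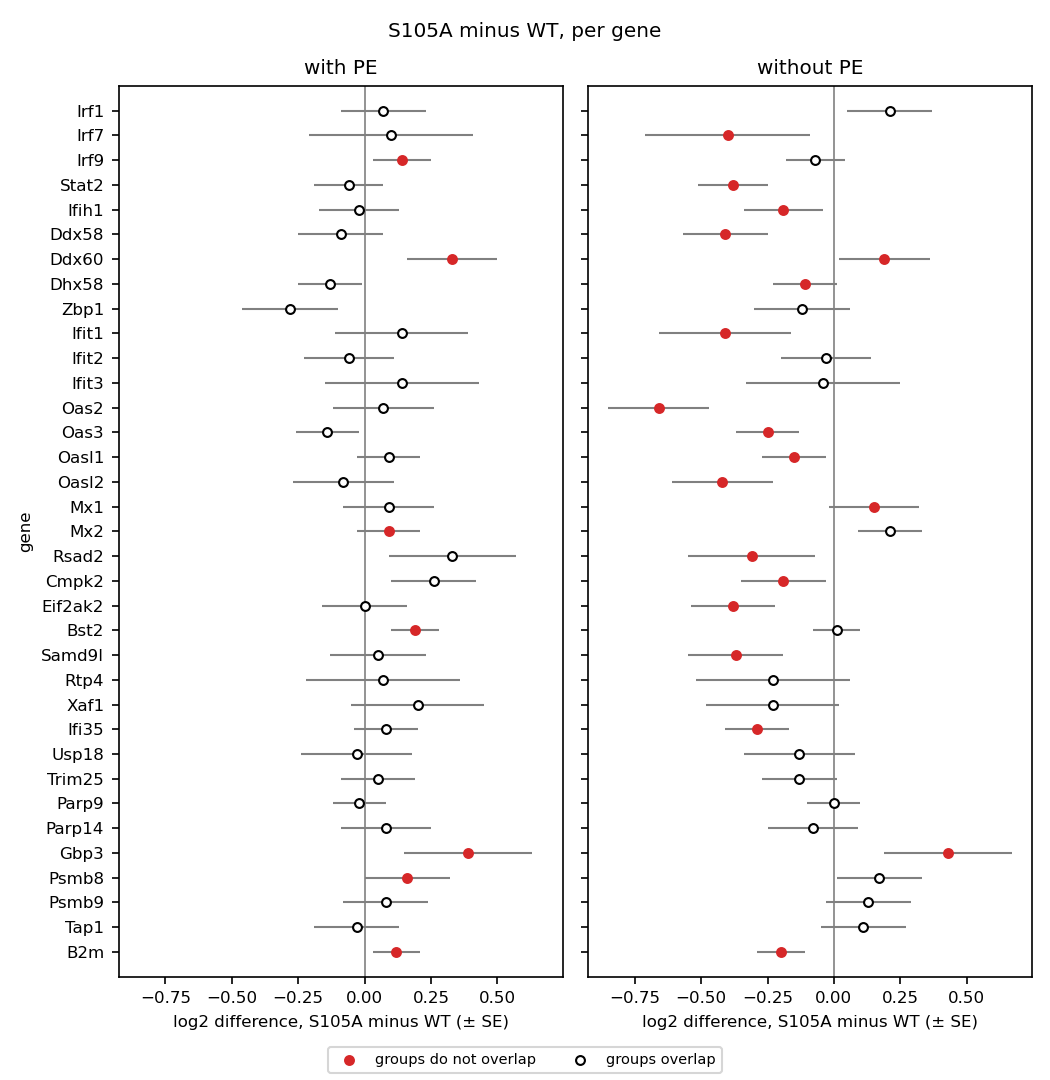
Log2 difference of each member, S105A minus WT, with PE (left) and without PE (right); points are differences of 2 against 2 arrays, bars are standard errors, and red points mark groups that do not overlap. Without PE 25 of 35 points lie below 0 and with PE 12 of 35.

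The PE difference in S105A hearts minus that in WT hearts had a member median of 0.18, against -0.01 for all genes, and was above 0 in 24 of the 35 (47.5% of genes). No member passed the adjusted threshold by limma (0.0% of genes, lowest adjusted p 1.0). At an unadjusted p under 0.05, Oas2 and B2m were higher and 0 lower, with backgrounds of 0.903% and 1.52%, or 2.42% in either direction. The count of 2 became 0 with array 1 (2.18% of genes) or array 7 (2.47%) left out, and 1 with array 2 (1.62%) or array 5 (1.81%) left out. It became 4 with array 8 left out (2.54%), 5 with array 6 left out (1.68%) and 6 with array 4 left out, when 14.0% of genes passed. Oas2 had an interaction of 0.73 (SE 0.26, 95% interval 0.10 to 1.36), B2m of 0.32 (SE 0.13) and Ifi35 of 0.37 (SE 0.16). The interaction of Oas2 was 0.47 without array 3, that of B2m 0.21 without array 5 and that of Ifi35 0.23 without arrays 3 and 7. These 3 were the members whose PE arrays lay above the untreated arrays in S105A hearts and below them in WT hearts, against 1.45% of all genes. The reverse pattern was found in 0 members and 2.31% of genes. The median was -0.07 with arrays 3 and 7 left out, and with single arrays left out it ran from 0.07 (array 7) and 0.09 (array 3) through 0.12 (array 5) to 0.28 (array 8) and 0.31 (array 6).

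Animals of a group differed in these genes. The median within-group SD was 0.19 for the members, with a range of 0.0775 in Bst2 to 0.397 in Irf7, and 0.115 for all genes. In S105A PE hearts, array 7 was above array 8 in 27 of the 35 members, with a median difference of 0.20, where 44.5% of genes were higher on array 7. Between the WT PE hearts, array 4 was above array 3 in 25 members with a median of 0.21 (53.1% of genes). Between the S105A untreated hearts, array 6 was above array 5 in 32 members with a median of 0.28 (50.6% of genes). The WT untreated hearts differed by a median of 0.03, with array 2 above array 1 in 19 members (48.4% of genes).

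Cell type markers were set beside these values. The 14 macrophage markers averaged 9.03 and 8.46 in S105A PE hearts, 9.37 and 8.67 in WT PE hearts, 7.92 and 7.95 in S105A untreated hearts and 8.08 and 8.37 in WT untreated hearts. Their median PE difference was 0.79 averaged over genotypes, and 12 of the 14 were higher at an unadjusted p under 0.05 (9.31% of all genes). By genotype the macrophage median was 0.79 in S105A hearts and 0.78 in WT hearts, and that of fibroblast markers 1.06 and 1.05. The 9 endothelial markers had medians of -0.08 in S105A hearts and -0.30 in WT hearts, and the 11 cardiomyocyte markers -0.06 and -0.22. Macrophage and fibroblast markers were higher on array 3 than on array 4, while 25 members were lower there; on array 7 both the markers and 27 members were higher than on array 8. T and NK cell markers averaged 5.05 to 5.34 and B cell markers 5.27 to 5.50 on all arrays, and none of them exceeded 6.72 on any array. The 8 neutrophil markers averaged 6.50 on array 2, WT untreated, and 5.00 to 5.30 on the other 7. The part of these cells in the member differences was not tested.

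**Figure D5:**
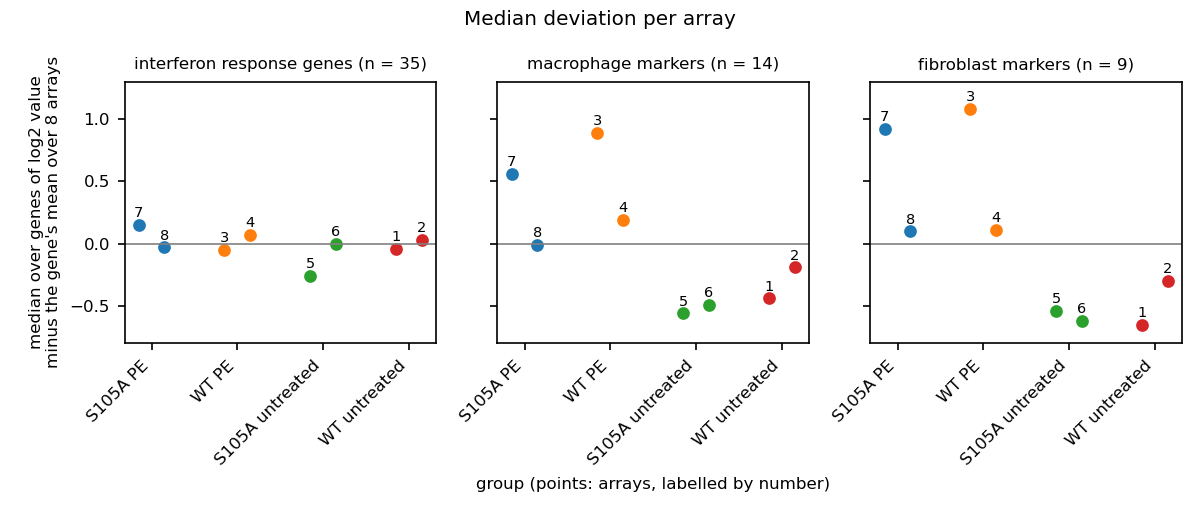
Median over genes of the log2 value minus the gene's mean over 8 arrays, for the 35 members, 14 macrophage markers and 9 fibroblast markers; each point is an array labelled by its number. Member medians span -0.26 on array 5 to 0.15 on array 7, while macrophage markers reach 0.89 on array 3 and 0.56 on array 7.

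Other genes of the pathway were taken from lists, and no gene of any list passed the adjusted threshold in any comparison (limma). The other interferon-induced genes, 59 of 76 measured, had a median PE difference of 0.15 in S105A hearts and -0.01 in WT hearts, and 43 and 29 of the 59 were above 0. In the average, 14 were higher and 4 lower at an unadjusted p under 0.05, with backgrounds of 9.31% and 7.44%. Tor3a, a torsin-family ATPase, measured 8.57 and 8.42 in S105A PE hearts against 8.14 and 8.15 in S105A untreated hearts, and 8.38 and 8.45 in WT PE hearts against 8.26 and 8.20 in WT untreated hearts. Cxcl10, a chemokine that attracts T cells, measured 6.21 and 6.16 in S105A PE hearts against 5.72 and 5.62 in S105A untreated hearts, with 5.63 and 5.88 in WT PE hearts and 5.43 and 5.68 in WT untreated hearts. Gbp11 had PE differences of -0.17 in S105A hearts (SE 0.16) and -0.81 in WT hearts (SE 0.16), averaging -0.49 (SE 0.11, adjusted p 0.275).

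Of the interferons, receptors and signalling genes, 23 of 25 were measured, and 5 were higher and 1 lower with PE in the average at an unadjusted p under 0.05 (9.31% and 7.44% of all genes). Ifnb1 measured 4.37 to 4.80 and Ifng 5.36 to 5.53 over all 8 arrays, with PE differences averaging -0.05 (SE 0.10) and -0.03 (SE 0.06). The type I receptor chain genes Ifnar1 and Ifnar2 had averaged differences of 0.36 (SE 0.12) and 0.26 (SE 0.09). Socs3, an inhibitor of JAK signalling, had 0.37 (SE 0.08), Ptpn6, a phosphatase of blood cells, 0.27 (SE 0.08), and Ifnl2, a type III interferon, -0.24 (SE 0.08). Ifnar1 was 8.80 and 8.43 in S105A PE hearts and 8.99 and 8.54 in WT PE hearts, with arrays 7 and 3 the higher of each pair.

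Nucleic acid sensing genes upstream of interferon numbered 24 of 28 measured, with 10 higher and 2 lower in the average at an unadjusted p under 0.05, where 9.31% and 7.44% of all genes were. Myd88, the adaptor of Toll-like receptors, measured 8.42 and 8.39 in S105A PE hearts against 8.12 and 8.12 in S105A untreated hearts, and 8.48 and 8.39 in WT PE hearts against 8.19 and 8.13 in WT untreated hearts, an averaged difference of 0.28 (SE 0.05, adjusted p 0.275). Irf5, a transcription factor downstream of Toll-like receptors, had 0.65 (SE 0.15), and Unc93b1, which carries nucleic acid receptors to endosomes, had 0.80 (SE 0.20). The adjusted p was 0.275 for each (limma). Irf5 measured 7.55 and 6.90 in S105A PE hearts, 7.61 and 7.27 in WT PE hearts and 6.64 to 6.75 without PE. Unc93b1 measured 8.57 and 7.98, 8.77 and 8.04, and 7.41 to 7.73 in the same order. For both genes, arrays 7 and 3 were the higher of each PE pair. Of 19 measured MHC presentation genes, 3 were higher and 1 lower by the same rule and backgrounds; Calr, H2-DMa and Pdia3 had averaged differences of 0.34, 0.29 and 0.35. All 14 constitutive proteasome subunit genes were measured, 0 were higher and 3 lower by that rule, and Psmb3, Psmb7 and Psma2 had -0.25, -0.18 and -0.20.

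Members with the response element letters in the window and those without were set side by side as a description. In S105A hearts the median PE difference was 0.26 in the 12 with a match and 0.12 in the 14 without. In WT hearts the medians were 0.00 and -0.07. For the PE difference in S105A hearts minus that in WT hearts they were 0.24 and 0.23. Members without a matched window were in neither set, Dhx58, Zbp1, Usp18 and Oas2 among them.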

How the data were processed

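RNA from hearts of 8 mice was hybridized to 1 array per animal, per the labels. The deposited log2 levels were made by the authors with RMA, as the submitters' processing notes list. The genome build was not given in the sources used here, and neither was the RMA version. RMA makes array distributions alike and would remove a shift common to most genes. That the scale is log2 was judged from the range, 2.63 to 14.45. Of 35557 probe sets, 21789 had 1 gene symbol, 1621 several and 12147 none in the platform annotation.

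Groups came from the titles, which number the animals. One coefficient per group was fitted to 19938 genes over the 8 arrays (limma 3.58.1, R 4.3.3; 4 residual and 2.74 prior degrees of freedom). Tests were two-sided, unpaired and adjusted by Benjamini-Hochberg over all genes within a comparison. Having 2 arrays per group limits the precision. The members and all lists were chosen with earlier results of these data known. Per-array values were given for members whose PE groups were apart from their untreated groups in both genotypes, for the 6 smallest p-values of each comparison and for the transcription factors; those of Ifit1 were added after they were seen, to complete the IFIT genes. Other lists gave 3 genes by p-value and a fixed set. Promoters came from RefSeq. The fit was tested on simulated data. Alternatives were a filter on the lowest 40% of genes, the mean of probe sets, further quantile normalization, trended robust variance, array weights, 4-array fits, each array left out, and arrays 3 and 7 left out together.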

Additional observations from a re-analysis of the deposited data

Results flagged for a closer look

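For 3 members the PE arrays lay above the untreated arrays without overlap in S105A hearts and below them without overlap in WT hearts. This was so for 1.45% of all genes, and the reverse for 0 members and 2.31% of genes. For Ifi35 the WT separation was less than the rounding, as arrays 4 and 2 both read 8.08. The PE difference in S105A hearts minus that in WT hearts was 0.73 for Oas2 (limma unadjusted p 0.0292), 0.37 for Ifi35 (0.0595) and 0.32 for B2m (0.0482), each with an adjusted p of 1.0. Over all alternatives run it lay between 0.46 and 0.99 for Oas2, 0.23 and 0.49 for Ifi35 and 0.21 and 0.44 for B2m. These members were picked for groups that do not overlap in opposite directions, so leaving arrays out could not change the sign. Their p-values rest on the same values as that pick and are no further test of it. Array 5 was the lowest of all 8 arrays for each of these genes.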

How the results depend on the processing

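No paired analysis was possible because the groups share no animal numbers. Members called at the adjusted threshold numbered 0 to 3 with PE in WT hearts when each array was left out in turn; the 3, without array 4, were Dhx58, Oas2 and Rsad2, when 17.8% of all genes passed. In the averaged PE difference the range was 0 to 1, and 1 (Dhx58) passed without arrays 3 and 7. The 1 came without array 4 and without arrays 3 and 7. Both settings left a single WT PE array, and more of all genes passed in them than in the main fit. Without array 4 the share of all genes that passed was above the members' share. Without arrays 3 and 7 it was below the members' share. In the 4 other comparisons 0 members passed in the main fit or in the alternatives that kept 2 arrays per group. Of all genes, 0.0% passed there in the main fit and at most 0.0301% in those alternatives. What moved Dhx58, Oas2 and Rsad2 across the threshold was not tested. Leaving out arrays 3 and 7 gave member medians of -0.12 for S105A against WT with PE and -0.07 for the interaction; leaving out single arrays gave -0.03 to 0.15 and 0.07 to 0.31. The S105A against WT difference with PE changed sign for Cmpk2 (-0.02 without arrays 3 and 7), for Rsad2 (single arrays left out, -0.02 to 0.68) and for Zbp1 (-0.57 to 0.01). Of 524 alternative values for 36 single-member results, 3 changed sign. Many of the 524 could not differ from the main value, because the setting changed only the variance or dropped arrays of groups outside the comparison. The 3 is therefore not a measure of stability. Without arrays 3 and 7 the unadjusted counts were 3, 7 and 8 members for PE in S105A hearts, in WT hearts and averaged, when 7.89%, 9.91% and 11.4% of all genes passed. Signal over background was not given, so values of the 5 members in the lowest 40% have no stated floor.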
